A study of Sus scrofa with 8 samples.

Results

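Synovial mesenchymal stem cells (SMSCs) of Angeln Saddleback (AS) pigs were compared with those of German Landrace (DL) pigs over the joint tissues from which they were grown. All 8 of the 8 arrays entered the comparison, 4 of AS and 4 of DL, and every probe set that was not a control on the array was tested. The cells came from the stifle joints of 3 male piglets of each breed, 59 days old, and RNA was taken from pools of undifferentiated cells of all animals at passage 3, per the methods. In each breed 2 arrays were of adipose synovium from the infrapatellar fat pad (FP) and 2 of fibrous synovium from the lateral joint capsule (FS), numbered replicate 1 and 2. The groups carry no treatment and no altered allele, and the cells are cultures expanded from the membrane, not the membrane itself. What sets the 2 arrays of a group apart (separate pools, cultures or RNA of one pool) is not in the labels. The p-values therefore rest on array-to-array spread, which may be technical, and breed cannot be told apart from the particular animals and pools of each breed.

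As background, the synovial membrane lines the joint, makes the lubricating fluid and holds fibroblast-like cells from which cartilage, bone and fat can be grown. In culture such cells divide, and dividing cells copy their DNA with a helicase of MCM proteins, separate the copies on a spindle and draw on amino acids and one-carbon units, whereas FOXO transcription factors and cyclin-dependent kinase inhibitors hold growth back. The same cells secrete matrix, complement proteins and enzymes, and break material down in lysosomes.

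Each value is the log2 signal of a probe set, a group of short probes read together, on which 1 unit means that the signal doubles. The array medians lay between 4.58 and 4.64 and the medians of the background probe sets between 2.66 and 2.81. The bacterial BioB control was lower on DL-FP 1 (7.65) than on the other arrays (8.63 to 9.03). In every group it was also lower on the array numbered 1 than on the array numbered 2. Arrays 1 and 2 stood at 7.65 and 9.03 in DL-FP and at 8.63 and 8.95 in DL-FS. In AS-FP they stood at 8.63 and 8.90, and in AS-FS at 8.65 and 8.915. The part of this control in the results was not tested. A probe set is called here when its difference between AS and DL passed an adjusted p of 0.1 or less in limma, with the 4 groups and the replicate number in the model. Of 47722 probe sets, 586 were called higher in AS (1.23%) and 865 higher in DL (1.81%), with sizes from 0.20 to 2.94 and a median size of 0.52. The model without the replicate number called 110 and 208. Represented by its brightest probe set, 258 of 13435 named genes were higher in AS (1.92%) and 407 higher in DL (3.03%), and the median over all genes was -0.0034. The 4 AS arrays lay above the 4 DL arrays for 379 genes (2.82%) and below them for 563 (4.19%). All differences below are AS minus DL, given with the standard error of the model after ±, so that a negative difference is a level higher in DL, and the 4 values of a breed stand in the order FP 1, FP 2, FS 1, FS 2. Where a call changed when an array was left out in turn, or when the replicate number was left out of the model, the adjusted p without it follows in the same paragraph.

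**Figure D1:**
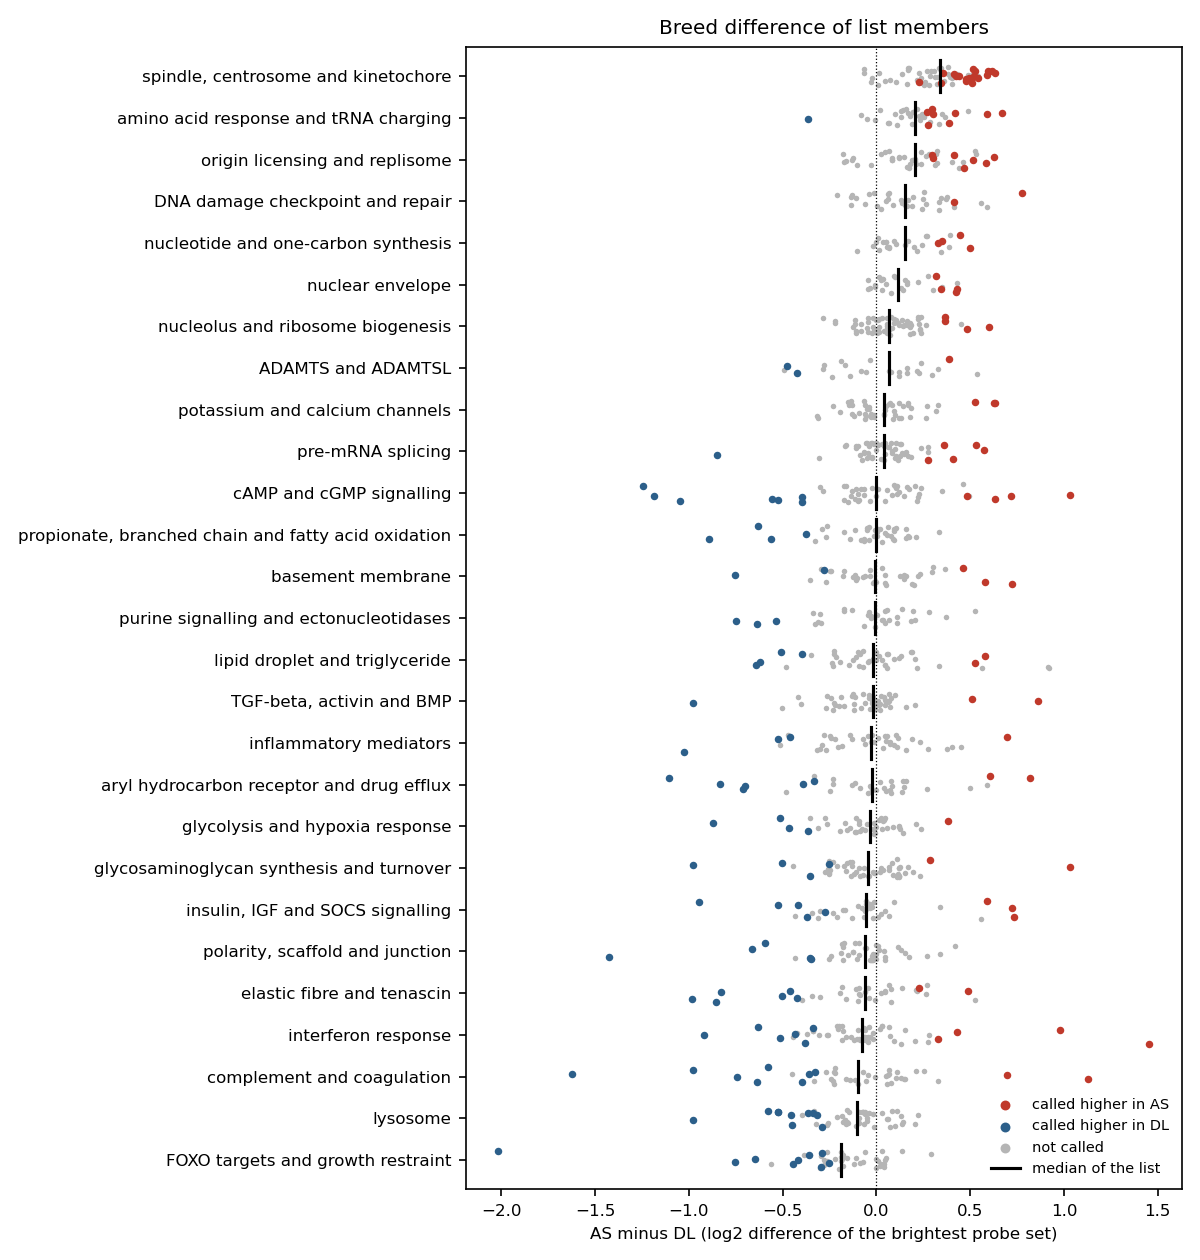
Log2 difference AS minus DL (x axis) of the measured members of 27 gene lists (rows, ordered by their median), each point being the brightest probe set of a gene, red where called higher in AS, blue where called higher in DL and grey where not called, with a black bar at the median. The spindle list has the highest median (0.34) and the list of FOXO targets and growth restraint the lowest (-0.19).

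In the list of the spindle, the centrosome and the kinetochore, all called genes were higher in AS. Of its 61 measured genes 19 were called higher in AS (31.1%, against 1.92% of all genes) and 0 higher in DL, with 57 of 61 differences above 0 and a median of 0.34. In bulk RNA, fewer cells of a type and less RNA per cell cannot be told apart, so a share of dividing cells is not measured here. TOP2A, the topoisomerase that untangles sister chromosomes, stood at 8.55, 8.01, 8.09 and 7.71 on the DL arrays and at 8.92, 8.66, 8.64 and 8.62 on the AS arrays. The 4 AS arrays lay above the 4 DL arrays, and the difference was 0.62 ± 0.09 (adjusted p = 0.0182). NEDD1, which recruits the gamma-tubulin ring to the centrosome, stood at 7.97, 7.87, 7.97 and 7.89 on the DL arrays and at 8.49, 8.33, 8.56 and 8.36 on the AS arrays. It was the list member with the lowest adjusted p, with a difference of 0.51 ± 0.06 (adjusted p = 0.00971) and no overlap. CDC20, the activator of the anaphase-promoting complex, stood at 9.05, 8.42, 8.57 and 7.94 on the DL arrays and at 9.20, 9.07, 9.22 and 9.02 on the AS arrays, and AURKA, the kinase of the spindle poles, stood at 7.19, 6.15, 6.43 and 5.77 on the DL arrays and at 7.25, 6.61, 7.25 and 6.79 on the AS arrays. For both genes DL-FP 1 lay within the range of the AS arrays, and the differences were 0.63 ± 0.10 (adjusted p = 0.0282) and 0.59 ± 0.11 (adjusted p = 0.0423). Other called genes were TPX2, which activates AURKA (0.44), PLK4, the kinase that starts centriole copying (0.48), CIP2A, an inhibitor of the phosphatase PP2A (0.52), and the condensin subunit NCAPD2 (0.43). TPX2 and CIP2A had other probe sets that averaged 0.14 and 0.16, in that order. For TPX2 these differed by 0.45, which was called, and by -0.16, which was not. NEDD1 and TOP2A passed with each array left out in turn (adjusted p up to 0.0967), whereas CDC20 did not without DL-FP 2, AS-FP 2 or AS-FS 2 (0.109 to 0.138). TPX2 passed only with DL-FS 1, DL-FS 2 or AS-FP 1 left out (otherwise 0.117 to 0.148), CIP2A only with DL-FS 1 or AS-FS 1 left out (otherwise 0.107 to 0.184), AURKA only with DL-FP 1 or AS-FS 1 left out (otherwise 0.109 to 0.162) and PLK4 and NCAPD2 only with DL-FS 1 left out (otherwise 0.102 to 0.188). TOP2A, CDC20, TPX2, PLK4, CIP2A, AURKA and NCAPD2 did not pass without the replicate number in the model (adjusted p of 0.180 to 0.644). Counts over the list were 2 with AS-FP 2, AS-FS 2 or DL-FP 2 left out, 6 with DL-FP 1 or DL-FS 2 left out, 8 with AS-FP 1 left out, 9 with AS-FS 1 left out and 22 with DL-FS 1 left out, 1 without the replicate number in the model (NEDD1), and 35 where the mean of a gene's probe sets was tested.

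The level of the spindle list also moved with the replicate number and with the tissue. Its mean over the 61 genes was 7.20 and 6.68 on the DL-FP arrays, 6.83 and 6.25 on the DL-FS arrays, 7.17 and 6.87 on the AS-FP arrays, and 7.26 and 6.94 on the AS-FS arrays. In every group the array numbered 1 lay above the array numbered 2, and the median gene differed by -0.47 between the numbers (2 minus 1), a larger size than that between the breeds. The median breed difference was 0.091 in FP, where 43 of 61 genes lay above 0, and 0.57 in FS, where 61 of 61 did (the test of the difference between tissues, given further on, was passed by 0 probe sets). What the replicate number stands for is not given in the sources used here, and its part in these levels was not tested beyond the model with and without it.

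The called members of the lists of the replication machinery and its supplies had the same direction. In the list of origin licensing and the replisome, 7 of 43 genes were called higher in AS (16.3%, against 1.92% of all genes) and 0 higher in DL (median 0.21). MCM7, a subunit of the replicative helicase, stood at 8.38, 7.47, 7.67 and 6.87 on the DL arrays and at 8.56, 7.54, 8.65 and 7.96 on the AS arrays, a difference of 0.58 ± 0.07 (adjusted p = 0.0123) that was 0.13 in FP and 1.03 in FS. The breeds overlapped for MCM7 as for each of the other called members of the list. These were the helicase subunits MCM5 (0.51), MCM4 (0.41) and MCM6 (0.30), the DNA polymerase epsilon subunit POLE2 (0.63), the nuclease-helicase DNA2 (0.47) and the sliding clamp PCNA (0.29). Median differences of the replisome list were 0.061 in FP and 0.42 in FS, and -0.38 between the replicate numbers (2 minus 1). PCNA had other probe sets that averaged 0.05. MCM7 passed with each array left out in turn (adjusted p up to 0.0845). POLE2, MCM4 and MCM5 passed only with DL-FS 1 or AS-FS 1 left out (otherwise 0.144 to 0.271) and DNA2, PCNA and MCM6 lost the call with each array left out (0.111 to 0.325). None of these 7 genes passed without the replicate number in the model (adjusted p of 0.449 to 0.728). Over the list, 0 genes were called without the replicate number in the model and 18 with the mean of a gene's probe sets.

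Of 27 genes that make nucleotides and one-carbon units, 4 were higher in AS (14.8%, against 1.92% of all genes) and 0 in DL, with a median of 0.15. MTHFD2, a mitochondrial enzyme of folate metabolism, stood at 9.31, 8.92, 9.06 and 8.84 on the DL arrays and at 9.66, 9.33, 9.73 and 9.43 on the AS arrays. Its AS arrays all lay above its DL arrays, narrowly so for AS-FP 2 against DL-FP 1, and the difference was 0.50 ± 0.06 (adjusted p = 0.00773). SHMT2, which feeds the same pathway from serine, was higher by 0.33 ± 0.05 (adjusted p = 0.0267), the nucleoside diphosphate kinase NME1 by 0.45 ± 0.07 (adjusted p = 0.0211) and the thymidylate synthase TYMS by 0.35 ± 0.07 (adjusted p = 0.0464). Among 37 genes of the DNA damage checkpoint and repair, 2 were higher in AS (5.41%, against 1.92% of all genes) and 0 in DL (median 0.15). HUS1, a part of the checkpoint clamp loaded at damaged DNA, stood at 6.11, 5.92, 5.73 and 5.64 on the DL arrays and at 6.80, 6.42, 6.79 and 6.50 on the AS arrays, a difference of 0.78 ± 0.09 (adjusted p = 0.00782) with no overlap. A second HUS1 probe set was also called, and the third had the opposite sign (-0.13). ATM, the kinase that answers double-strand breaks, was higher by 0.41 ± 0.07 (adjusted p = 0.0300) on its brightest probe set, but only 3 of its 8 other probe sets above background had that sign. HUS1 and ATM had other probe sets that averaged 0.19 and 0.01, in that order. MTHFD2 and HUS1 passed with each array left out in turn (adjusted p up to 0.0630), whereas NME1 did not without DL-FP 2 (0.120). ATM passed only with DL-FS 1, DL-FS 2 or AS-FP 2 left out (otherwise 0.107 to 0.147), SHMT2 only with DL-FS 1 or DL-FS 2 left out (otherwise 0.102 to 0.132) and TYMS only with DL-FS 2 left out (otherwise 0.1002 to 0.178). MTHFD2, NME1, SHMT2, TYMS and ATM did not pass without the replicate number in the model (adjusted p of 0.242 to 0.483). With the mean of a gene's probe sets, 9 genes of the nucleotide list were called and 8 of the damage list.

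**Figure D2:**
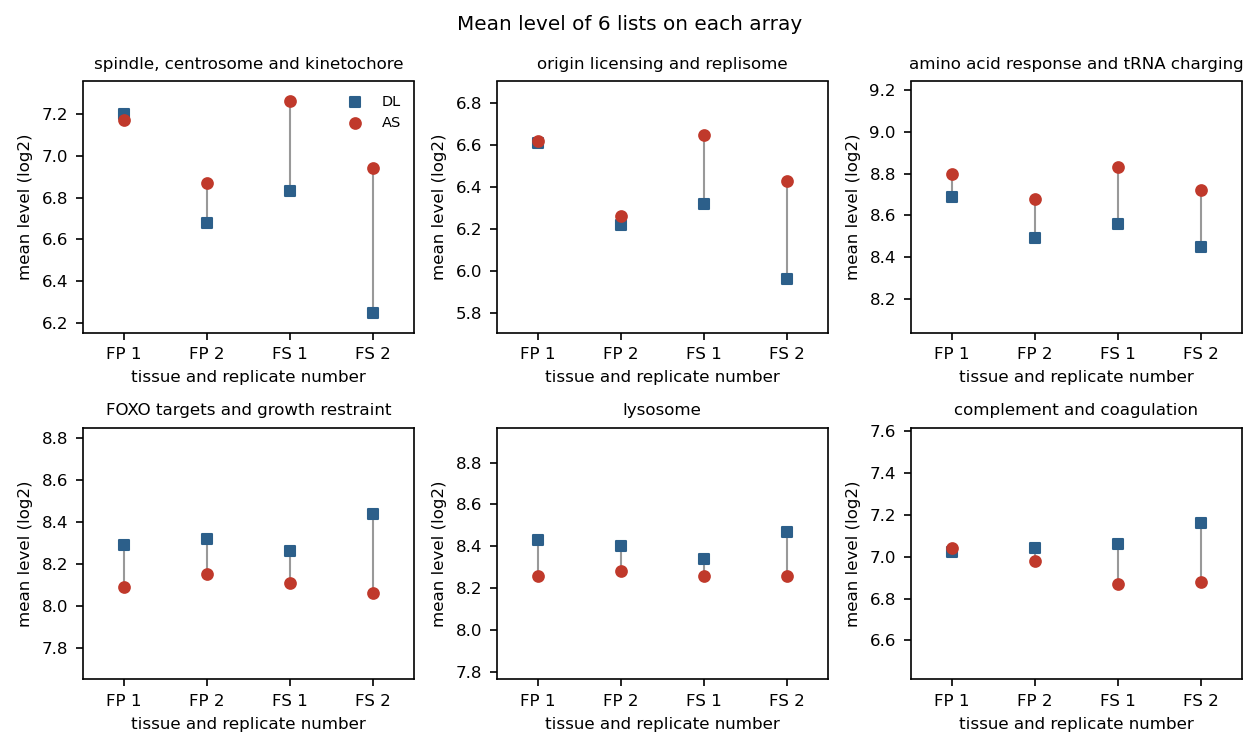
Mean log2 level (y axis, each panel spanning 1.2) of the measured genes of 6 lists on each array, with DL as squares and AS as circles joined within a tissue and replicate number (x axis). The AS and DL points of the spindle and replisome lists lie close in FP 1 and apart in FS, while the lists of growth restraint and of the lysosome are lower in AS at each of the 4 positions.

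In lists of the nucleus and of RNA handling the called members were, but for RBM17, higher in AS. For the nuclear envelope 4 of 28 genes were higher in AS (14.3%, against 1.92% of all genes) and 0 in DL (median 0.12). These were the nuclear pore subunit SEH1L (0.32), the lamin B receptor LBR (0.42), the lamina protein TMPO (0.43) and the membrane protein nurim, NRM (0.34). SEH1L, TMPO and LBR had AS arrays that all lay above the DL arrays, and the other TMPO probe set differed by -0.06. In the list of the nucleolus and ribosome biogenesis 4 of 66 were higher in AS (6.06%, against 1.92% of all genes) and 0 in DL (median 0.069). METTL1, which methylates transfer RNA, stood at 7.31, 6.83, 6.77 and 6.49 on the DL arrays and at 7.60, 7.33, 7.55 and 7.32 on the AS arrays, a difference of 0.60 ± 0.08 (adjusted p = 0.0119). The others were UTP20 of the small subunit processome (0.36) and the RNase P and MRP subunits POP5 (0.37) and POP4 (0.48). POP4 had other probe sets that averaged 0.04. METTL1 passed with each array left out in turn (adjusted p up to 0.0765). NRM passed only with DL-FP 1, DL-FS 1 or AS-FS 1 left out (otherwise 0.102 to 0.188), SEH1L only with DL-FS 1 or DL-FS 2 left out (otherwise 0.108 to 0.154), TMPO and POP5 only with DL-FS 1 left out (otherwise 0.105 to 0.237), LBR only with DL-FP 1 left out (otherwise 0.133 to 0.237), POP4 only with DL-FS 2 left out (otherwise 0.164 to 0.265) and UTP20 lost the call with each array left out (0.102 to 0.242). None of these 8 genes passed without the replicate number in the model (adjusted p of 0.182 to 0.620).

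Of 62 genes of pre-mRNA splicing, 5 were higher in AS (8.06%, against 1.92% of all genes) and 1 in DL (1.61%, against 3.03%). The median was 0.041. Those higher in AS act largely in building small nuclear ribonucleoproteins: the Sm protein SNRPB (0.58), CLNS1A (0.53) and WDR77 (0.41) of the methylosome that modifies Sm proteins, and GEMIN5 (0.28), which binds small nuclear RNA. RBMX (0.36), an RNA-binding protein of the spliceosome, had 12 other probe sets above background, of which 10 shared its sign. RBM17, a splicing factor of the early spliceosome, differed the other way and stood at 8.12, 7.97, 8.15 and 7.82 on the DL arrays and at 7.23, 7.02, 7.36 and 7.05 on the AS arrays. It had the lowest adjusted p of the list, with every DL array above every AS array and a difference of -0.85 ± 0.07 (adjusted p = 0.00172). RBM17 and SNRPB passed with each array left out in turn (adjusted p up to 0.0974), whereas CLNS1A did not without DL-FP 1, DL-FP 2, AS-FP 1 or AS-FS 2 (0.103 to 0.159). RBMX passed only with DL-FS 2 or AS-FS 1 left out (otherwise 0.110 to 0.234), WDR77 only with AS-FS 1 left out (otherwise 0.121 to 0.266) and GEMIN5 lost the call with each array left out (0.152 to 0.318). SNRPB, CLNS1A, RBMX, WDR77 and GEMIN5 did not pass without the replicate number in the model (adjusted p of 0.204 to 0.691).

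Called members of the list of amino acid supply were, but for VEGFA, higher in AS. Of 36 measured genes of the amino acid response and transfer RNA charging, 8 were higher in AS (22.2%, against 1.92% of all genes). In DL 1 was higher (2.78%, against 3.03%), 32 of 36 differences lay above 0 and the median was 0.21. By tissue the median was 0.13 in FP and 0.25 in FS, with 32 of 36 differences above 0 in each. SLC1A4, a transporter of alanine, serine and cysteine, stood at 8.13, 7.91, 7.73 and 8.13 on the DL arrays and at 8.54, 8.54, 8.91 and 8.58 on the AS arrays. No AS array reached down to the DL range, and the difference was 0.67 ± 0.12 (adjusted p = 0.0369). The glutamine transporter SLC1A5 (0.28), the serine synthesis enzyme PSAT1 (0.39), the asparagine synthetase ASNS (0.27), the alanyl-tRNA synthetase AARS1 (0.29) and SESN2 (0.30), a stress-induced relative of SESN3 that also limits mTOR signalling, were higher too. STC2, a secreted glycoprotein, stood at 6.79, 7.20, 6.43 and 6.53 on the DL arrays and at 7.07, 7.20, 7.43 and 7.62 on the AS arrays, so that its difference of 0.59 ± 0.08 (adjusted p = 0.0160) was 0.14 in FP and 1.05 in FS. The member higher in DL was VEGFA (-0.36 ± 0.06, adjusted p = 0.0402), the endothelial growth factor, on its brightest probe set (0.22 on the one that is brightest among probe sets with an SD above 0.25). Other VEGFA probe sets differed by -0.27, which was called, and by -0.31, which was not. SLC1A4 and SESN2 had other probe sets that averaged 0.08 and 0.07, in that order. STC2 passed with each array left out in turn (adjusted p up to 0.0809), whereas PSAT1 did not without DL-FP 2, AS-FP 1 or AS-FS 2 (0.102 to 0.132) and SLC1A4 did not without DL-FP 2, AS-FP 1, AS-FP 2 or AS-FS 1 (0.120 to 0.179). VEGFA passed only with DL-FP 1, DL-FS 1 or DL-FS 2 left out (otherwise 0.130 to 0.173), ASNS only with DL-FS 1 or DL-FS 2 left out (otherwise 0.138 to 0.213), SLC1A5 only with DL-FS 1 left out (otherwise 0.109 to 0.219), AARS1 only with DL-FS 2 left out (otherwise 0.1002 to 0.228) and SESN2 lost the call with each array left out (0.107 to 0.226). STC2, PSAT1, VEGFA, SLC1A5, ASNS, AARS1 and SESN2 did not pass without the replicate number in the model (adjusted p of 0.107 to 0.675). Over the list the count was 1 with AS-FP 1 or DL-FP 2 left out, 2 with AS-FP 2, AS-FS 1 or AS-FS 2 left out, 4 with DL-FP 1 left out, 6 with DL-FS 2 left out and 8 with DL-FS 1 left out, 1 without the replicate number in the model (SLC1A4), and 15 with the mean of a gene's probe sets.

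**Figure D3:**
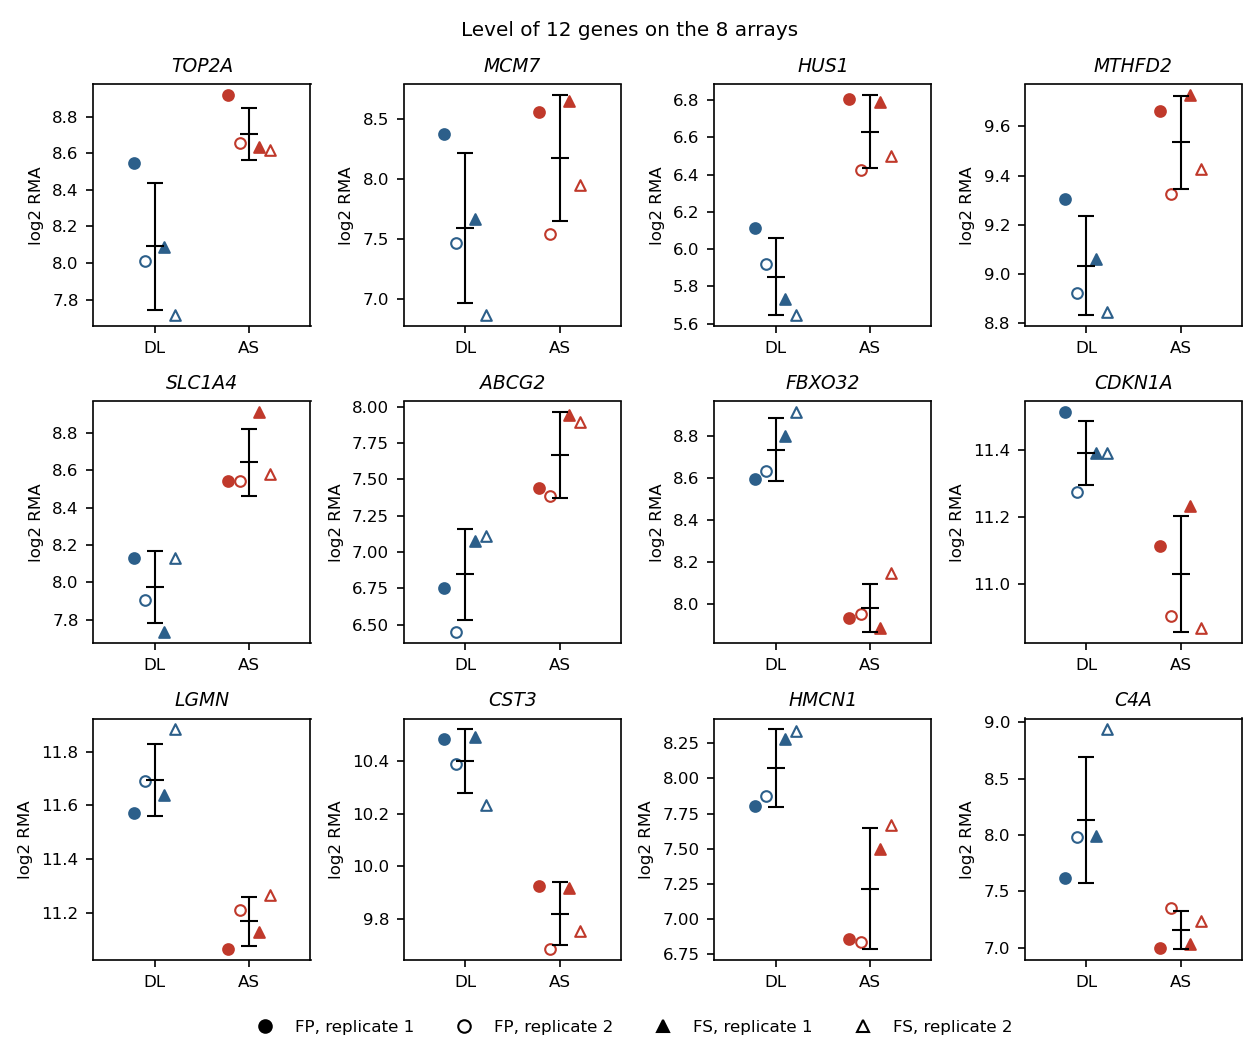
Log2 level (y axis, a separate scale for each panel) of 12 genes on the 4 DL and 4 AS arrays, with FP as circles, FS as triangles, replicate 1 filled and replicate 2 open, and with the mean and SD of each breed in black. TOP2A to ABCG2 are higher in AS and FBXO32 to C4A higher in DL, and of the 12 only MCM7 has arrays of the breeds overlapping.

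Called members of the list of FOXO targets and growth restraint were all higher in DL. In it 9 of 44 genes were called higher in DL (20.5%, against 3.03% of all genes) and 0 higher in AS, 33 of 44 differences lay below 0 and the median was -0.19. The median was -0.14 in FP and -0.15 in FS, and between the replicate numbers it was 0.026. DDIT4L, an inhibitor of mTOR signalling, stood at 6.52, 6.18, 6.91 and 6.68 on the DL arrays and at 4.66, 4.59, 4.21 and 4.76 on the AS arrays. This was a 4.05-fold difference in signal and among the largest of the comparison (-2.02 ± 0.15, adjusted p = 0.00120), with every DL array above every AS array. FBXO32, also known as atrogin-1, a ubiquitin ligase of muscle wasting that FOXO factors switch on, stood at 8.60, 8.63, 8.80 and 8.91 on the DL arrays and at 7.94, 7.96, 7.89 and 8.15 on the AS arrays. All 3 of its probe sets were called, with a difference of -0.75 ± 0.07 (adjusted p = 0.00277) on the brightest. TOB1, an antiproliferative protein, differed by -0.45 ± 0.06 (adjusted p = 0.0138) and CDKN1A, the cyclin-dependent kinase inhibitor p21, by -0.36 ± 0.07 (adjusted p = 0.0430), both without overlap. CDKN1A stood at 11.51, 11.28, 11.39 and 11.39 on the DL arrays and at 11.11, 10.91, 11.23 and 10.87 on the AS arrays, so that the narrowest gap was between DL-FP 2 and AS-FS 1. FOXO1 itself, one of the transcription factors, differed by -0.25 ± 0.06 (adjusted p = 0.0817), and the stress-induced GADD45B by -0.30 ± 0.06 (adjusted p = 0.0531). SESN3, a FOXO target that limits mTOR signalling, stood at 6.84, 7.10, 7.33 and 7.77 on the DL arrays and at 7.07, 7.08, 5.96 and 6.34 on the AS arrays, and PIK3R1, the regulatory subunit of PI3 kinase, stood at 10.34, 10.80, 10.03 and 10.53 on the DL arrays and at 10.32, 10.63, 9.36 and 9.71 on the AS arrays. Their differences were 0.10 and -0.10 in FP and -1.40 and -0.74 in FS, with overall values of -0.65 ± 0.09 (adjusted p = 0.0182) and -0.42 ± 0.06 (adjusted p = 0.0144). A second PIK3R1 probe set was lower in AS by more (-1.85, adjusted p = 0.000165), and the third differed by 0.11. TOB1, PIK3R1 and CDKN1A had other probe sets that averaged -0.05, -0.87 and 0.00, in that order. DDIT4L, FBXO32, TOB1 and PIK3R1 passed with each array left out in turn (adjusted p up to 0.0960), whereas SESN3 did not without DL-FP 2 (0.109). CDKN1A passed only with DL-FS 1, DL-FS 2 or AS-FS 1 left out (otherwise 0.155 to 0.179), GADD45B only with DL-FS 1 or AS-FP 1 left out (otherwise 0.118 to 0.218) and FOXO1 lost the call with each array left out (0.143 to 0.259). PIK3R1, SESN3, CDKN1A, GADD45B and FOXO1 did not pass without the replicate number in the model (adjusted p of 0.148 to 0.494). Over the list the count was 4 with DL-FP 2 left out, 5 with AS-FP 2, AS-FS 2 or DL-FP 1 left out, 6 with AS-FP 1 or DL-FS 2 left out, 7 with AS-FS 1 left out and 9 with DL-FS 1 left out, 3 without the replicate number in the model (DDIT4L, FBXO32 and TOB1), and 18 with the mean of a gene's probe sets.

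Insulin-like growth factor (IGF) carriers split by member. Of 39 genes of insulin, IGF and SOCS signalling, 3 were higher in AS (7.69%, against 1.92% of all genes). In DL 5 were higher (12.8%, against 3.03%), and the median was -0.058. IGFBP2, an IGF-binding protein, stood at 10.48, 10.61, 9.68 and 9.92 on the DL arrays and at 8.94, 9.29, 9.25 and 9.41 on the AS arrays. Every DL array lay above every AS array and the difference was -0.95 ± 0.06 (adjusted p = 0.00062), wider in FP (-1.43 against -0.47 in FS). IGFBP5 was also higher in DL (-0.37 ± 0.07, adjusted p = 0.0557), as was the growth factor IGF2 (-0.27 ± 0.05, adjusted p = 0.0490), for which 12 of 13 other probe sets above background had the same sign. IGFBP4 was higher in AS (0.73 ± 0.07, adjusted p = 0.00342) and stood at 8.23, 8.65, 7.87 and 8.43 on the DL arrays and at 9.23, 9.75, 8.42 and 8.70 on the AS arrays, so that AS-FS 1 lay below DL-FP 2. IGFBP3 was called higher in AS (0.72 ± 0.15, adjusted p = 0.0649), but its other probe set differed by -0.03. SOCS5, a suppressor of cytokine signalling, was higher in DL (-0.53 ± 0.07, adjusted p = 0.0119) on all 3 of its probe sets by sign. STC2 and PIK3R1, described above, were the other called members. IGFBP2, IGFBP4 and SOCS5 passed with each array left out in turn (adjusted p up to 0.0804). IGFBP5 passed only with DL-FS 1, DL-FS 2 or AS-FP 1 left out (otherwise 0.157 to 0.209), IGF2 only with DL-FS 1 or DL-FS 2 left out (otherwise 0.120 to 0.213) and IGFBP3 only with DL-FS 2 left out (otherwise 0.118 to 0.254). IGFBP4, SOCS5, IGF2, IGFBP5 and IGFBP3 did not pass without the replicate number in the model (adjusted p of 0.107 to 0.559).

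Called members of the lysosome list were all higher in DL. Of 52 measured, 10 were called higher in DL (19.2%, against 3.03% of all genes) and 0 in AS. Of the differences 40 of 52 lay below 0, and the median was -0.10. The protease legumain, LGMN, stood at 11.57, 11.69, 11.64 and 11.88 on the DL arrays and at 11.07, 11.21, 11.13 and 11.27 on the AS arrays. The secreted cathepsin inhibitor cystatin C, CST3, stood at 10.48, 10.39, 10.49 and 10.23 on the DL arrays and at 9.93, 9.68, 9.92 and 9.76 on the AS arrays. Both genes separated the breeds in each tissue, by -0.53 ± 0.05 (adjusted p = 0.00302) and -0.58 ± 0.05 (adjusted p = 0.00346). HPSE, the heparanase that cuts heparan sulphate chains, stood at 6.27, 6.14, 6.13 and 6.32 on the DL arrays and at 4.91, 4.85, 5.50 and 5.70 on the AS arrays. Its AS-FS arrays lay between its AS-FP and DL arrays, the difference was -0.98 ± 0.10 (adjusted p = 0.00576), and another of its 3 probe sets was called. Also higher in DL were the carboxypeptidase cathepsin A, CTSA (-0.37), the cathepsins CTSC (-0.45), CTSO (-0.29) and CTSS (-0.46), and PSAP (-0.34), the precursor of proteins that help break down sphingolipids. The other CTSS probe set had the opposite sign (0.06). LGMN, CST3 and HPSE passed with each array left out in turn (adjusted p up to 0.0467). CTSA passed only with DL-FS 1, DL-FS 2 or AS-FS 1 left out (otherwise 0.142 to 0.170), CTSC only with DL-FP 2 or DL-FS 1 left out (otherwise 0.133 to 0.174), PSAP only with DL-FS 1 or DL-FS 2 left out (otherwise 0.109 to 0.211) and CTSO and CTSS lost the call with each array left out (0.107 to 0.275). CTSA, CTSC, PSAP, CTSO and CTSS did not pass without the replicate number in the model (adjusted p of 0.144 to 0.598). Over the list the count was 3 with AS-FP 1, AS-FP 2, AS-FS 2 or DL-FP 1 left out, 4 with DL-FP 2 left out, 5 with DL-FS 2 left out, 7 with AS-FS 1 left out and 11 with DL-FS 1 left out, 3 without the replicate number in the model (LGMN, CST3 and HPSE), and 15 with the mean of a gene's probe sets.

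Called members of the list of complement and coagulation were higher in DL, apart from C7 and PTX3. Of 41 measured, 8 were higher in DL (19.5%, against 3.03% of all genes). In AS 2 were higher (4.88%, against 1.92%), and the median was -0.10. C4A, the complement component that follows C1 in the classical pathway, stood at 7.62, 7.98, 7.995 and 8.94 on the DL arrays and at 6.99, 7.35, 7.03 and 7.23 on the AS arrays. DL-FS 2 was the highest array, no array overlapped and the difference was -0.98 ± 0.12 (adjusted p = 0.00977). C1S, the C1 protease that cleaves it, differed by -0.33 ± 0.07 (adjusted p = 0.0600) and C2, the next protease, by -0.36 ± 0.08 (adjusted p = 0.0713). COLEC12, a scavenger receptor with a collectin domain, stood at 9.96, 10.27, 10.61 and 10.91 on the DL arrays and at 8.06, 8.80, 8.88 and 9.50 on the AS arrays, a difference of -1.63 ± 0.09 (adjusted p = 0.000282) that was called on 2 of its 3 probe sets. The thrombin receptor thrombomodulin, THBD (-0.74 ± 0.11, adjusted p = 0.0181), and the plasminogen activator PLAT (-0.40 ± 0.08, adjusted p = 0.0635) were higher in DL as well. C7, a late component of the membrane attack complex, went the other way and stood at 5.16, 5.68, 4.70 and 5.34 on the DL arrays and at 6.96, 7.38, 5.34 and 5.71 on the AS arrays. Its difference of 1.13 ± 0.10 (adjusted p = 0.00205) was 1.75 in FP and 0.51 in FS, and the AS-FS 1 array at 5.34 lay within the DL range. PTX3, a long pentraxin that binds C1q and microbes, was higher in AS by 0.69 ± 0.06 (adjusted p = 0.00188). THBD and C1S had other probe sets that averaged -0.20 and -0.01, in that order. For C1S these differed by -0.46, which was called, and by 0.43, which was not. COLEC12, PTX3, C7 and C4A passed with each array left out in turn (adjusted p up to 0.0661), whereas THBD did not without DL-FP 2 (0.115). C1S passed only with DL-FS 1 left out (otherwise 0.105 to 0.234), PLAT only with DL-FS 2 left out (otherwise 0.143 to 0.217) and C2 lost the call with each array left out (0.1004 to 0.236). PTX3, C4A, C1S, PLAT and C2 did not pass without the replicate number in the model (adjusted p of 0.136 to 0.770). Over the list the count higher in DL was 2 with DL-FP 2 left out, 3 with AS-FP 2, AS-FS 1 or AS-FS 2 left out, 4 with AS-FP 1, DL-FP 1 or DL-FS 2 left out and 8 with DL-FS 1 left out, and 2 without the replicate number in the model.

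Other mediators of inflammation gave 3 of 42 genes higher in DL (7.14%, against 3.03% of all genes). PTX3 was the 1 higher in AS (2.38%, against 1.92%), and the median was -0.026. CCL11, the eosinophil chemokine eotaxin, stood at 7.22, 7.09, 7.22 and 6.69 on the DL arrays and at 6.43, 6.06, 6.07 and 5.58 on the AS arrays. The breeds did not overlap, and the difference was -1.02 ± 0.09 (adjusted p = 0.00302). IL33, an alarmin cytokine of the nucleus, was high in both breeds, 10.61 ± 0.07 in DL and 10.15 ± 0.30 in AS (SD, n = 4), and differed by -0.46 ± 0.07 (adjusted p = 0.0247). PTGES, the prostaglandin E synthase, differed by -0.53 ± 0.09 (adjusted p = 0.0315). PTX3 and CCL11 passed with each array left out in turn (adjusted p up to 0.0265), whereas IL33 did not without DL-FP 2, AS-FP 2 or AS-FS 2 (0.103 to 0.132). PTGES passed only with DL-FP 2, DL-FS 1 or AS-FS 2 left out (otherwise 0.102 to 0.119). PTX3 and IL33 did not pass without the replicate number in the model (adjusted p of 0.171 to 0.380).

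Genes of the interferon response differed in both directions. Of 54 genes, 4 were higher in AS (7.41%, against 1.92% of all genes) and 6 higher in DL (11.1%, against 3.03%). Of the differences 39 of 54 lay below 0, with a median of -0.077. PSMB8, the subunit of the immunoproteasome that cuts peptides for display on MHC class I, stood at 8.30, 7.77, 8.06 and 8.44 on the DL arrays and at 9.64, 9.65, 9.66 and 9.44 on the AS arrays. All 8 of its probe sets above background were higher in AS and 6 were called, with a difference of 1.46 ± 0.13 (adjusted p = 0.00263) on the brightest. OAS1, which senses double-stranded RNA, stood at 4.48, 3.96, 4.98 and 5.08 on the DL arrays and at 5.26, 5.70, 5.90 and 5.56 on the AS arrays and differed by 0.98 ± 0.17 (adjusted p = 0.0340), and its relative OAS2 by 0.33 ± 0.06 (adjusted p = 0.0351), with 3 probe sets of OAS2 called. IRF1, a transcription factor of the response, was higher in AS by 0.43 ± 0.10 (adjusted p = 0.0912). The proteins with tetratricopeptide repeats that bind viral RNA went the other way. IFIT3 stood at 5.04, 4.93, 5.55 and 5.55 on the DL arrays and at 4.16, 4.28, 4.55 and 4.40 on the AS arrays, a difference of -0.92 ± 0.11 (adjusted p = 0.0103) with no overlap, and its second probe set differed by -1.39. IFIT1 differed by -0.63 ± 0.13 (adjusted p = 0.0643) and IFIT5 by -0.38 ± 0.08 (adjusted p = 0.0707), each with 2 probe sets called. SAMHD1, which depletes the nucleotides that viruses need, differed by -0.52 ± 0.07 (adjusted p = 0.0141), and the RNA sensor RIGI by -0.34 ± 0.06 (adjusted p = 0.0490). OAS1 had other probe sets that averaged 0.27. PSMB8, IFIT3 and SAMHD1 passed with each array left out in turn (adjusted p up to 0.0944), whereas OAS1 did not without DL-FP 2, DL-FS 1, AS-FP 2 or AS-FS 1 (0.107 to 0.148). OAS2 passed only with DL-FS 1 or DL-FS 2 left out (otherwise 0.112 to 0.160), RIGI only with DL-FS 1 left out (otherwise 0.105 to 0.180), IFIT1 and IRF1 only with AS-FP 1 left out (otherwise 0.116 to 0.308) and IFIT5 only with AS-FS 1 left out (otherwise 0.135 to 0.275). OAS2, RIGI, IFIT1, IFIT5 and IRF1 did not pass without the replicate number in the model (adjusted p of 0.144 to 0.502).

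Handling of foreign compounds split between enzymes and pumps. In the list of the aryl hydrocarbon receptor and drug efflux, 6 of 35 genes were higher in DL (17.1%, against 3.03% of all genes). In AS 2 were higher (5.71%, against 1.92%), and the median was -0.026. The genes higher in AS were the efflux pumps. ABCG2, which marks stem cells that extrude dyes, stood at 6.75, 6.45, 7.08 and 7.11 on the DL arrays and at 7.44, 7.39, 7.94 and 7.90 on the AS arrays. ABCB1, the P-glycoprotein of multidrug resistance, stood at 9.13, 9.08, 9.19 and 9.36 on the DL arrays and at 9.82, 9.71, 9.86 and 9.81 on the AS arrays. Neither pump had overlapping arrays, the differences were 0.82 ± 0.08 (adjusted p = 0.00425) and 0.61 ± 0.07 (adjusted p = 0.00584), and 3 of 4 probe sets of ABCG2 and 2 of 2 of ABCB1 were called. The genes higher in DL were the receptor AHR itself (-0.33 ± 0.08, adjusted p = 0.0903), its target TIPARP (-0.39 ± 0.06, adjusted p = 0.0270) and enzymes. Among these EPHX1, the microsomal epoxide hydrolase, stood at 9.51, 9.63, 9.27 and 9.49 on the DL arrays and at 8.92, 8.95, 8.70 and 8.54 on the AS arrays, a difference of -0.70 ± 0.07 (adjusted p = 0.00559). The aldo-keto reductase AKR1CL1 differed by -0.83 ± 0.07 (adjusted p = 0.00172), the glucuronosyltransferase UGT1A6 by -0.71 ± 0.11 (adjusted p = 0.0228) and ALDH1A1, which makes retinoic acid, by -1.10 ± 0.19 (adjusted p = 0.0337). Members of the aldo-keto reductase and UGT1A families are near-identical in sequence, so these signals may be shared with relatives. AKR1CL1, ABCG2, EPHX1 and ABCB1 passed with each array left out in turn (adjusted p up to 0.0533), whereas UGT1A6 did not without DL-FP 1 or DL-FP 2 (0.115), TIPARP did not without DL-FP 2, AS-FP 2, AS-FS 1 or AS-FS 2 (0.104 to 0.130) and ALDH1A1 did not without DL-FP 2, DL-FS 2, AS-FP 1 or AS-FP 2 (0.113 to 0.130). AHR passed only with DL-FS 2 left out (otherwise 0.111 to 0.279). UGT1A6, TIPARP, ALDH1A1 and AHR did not pass without the replicate number in the model (adjusted p of 0.130 to 0.350).

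Fat metabolism had members on both sides. Of 47 genes of the lipid droplet and triglyceride, 2 were higher in AS (4.26%, against 1.92% of all genes). In DL 4 were higher (8.51%, against 3.03%), and the median was -0.02. PLIN2, a coat protein of lipid droplets, stood at 8.34, 8.20, 8.20 and 8.09 on the DL arrays and at 8.88, 8.85, 8.65 and 8.54 on the AS arrays, and ABHD5, the coactivator of triglyceride lipase, stood at 7.47, 7.35, 7.20 and 7.15 on the DL arrays and at 6.77, 6.64, 6.56 and 6.62 on the AS arrays. The droplet coat was higher in AS (0.53 ± 0.06, adjusted p = 0.00764) and the lipase coactivator higher in DL (-0.64 ± 0.08, adjusted p = 0.00918), neither with overlap. The monoglyceride lipase MGLL (-0.51 ± 0.12, adjusted p = 0.0904), the acyltransferase GPAT3 (-0.40 ± 0.08, adjusted p = 0.0524) and the lipid phosphatase PLPP3 (-0.62 ± 0.09, adjusted p = 0.0192) were higher in DL. ADIPOQ (adiponectin), a hormone of fat cells, differed by 0.58 ± 0.11 (adjusted p = 0.0445) on its brightest probe set. It had 5 others above background, of which 4 shared its sign, and 4 probe sets in all were called. PLIN2 and ABHD5 passed with each array left out in turn (adjusted p up to 0.0642), whereas PLPP3 did not without DL-FP 2 (0.115). ADIPOQ passed only with DL-FS 2 or AS-FS 2 left out (otherwise 0.109 to 0.170), GPAT3 only with DL-FS 2 left out (otherwise 0.135 to 0.223) and MGLL only with AS-FP 2 left out (otherwise 0.124 to 0.286). PLPP3, ADIPOQ, GPAT3 and MGLL did not pass without the replicate number in the model (adjusted p of 0.168 to 0.343).

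Oxidation genes had a median near 0 (-0.005), with 4 of 41 higher in DL (9.76%, against 3.03% of all genes) and 0 in AS. PCCB, a subunit of propionyl-CoA carboxylase, differed by -0.56 ± 0.06 (adjusted p = 0.00459) on its brightest probe set and by -0.79 on the other, both called. ECHDC1, which clears a faulty by-product of propionate handling, differed by -0.63 ± 0.07 (adjusted p = 0.00584), and the long-chain acyl-CoA dehydrogenase ACADL by -0.38 ± 0.06 (adjusted p = 0.0224). NUDT7, a peroxisomal hydrolase of coenzyme A, stood at 7.25, 7.24, 7.79 and 7.21 on the DL arrays and at 6.23, 6.60, 6.65 and 6.44 on the AS arrays and differed by -0.89 ± 0.14 (adjusted p = 0.0266). None of these 4 had overlapping breeds. In the list of glycolysis and the hypoxia response 4 of 42 were higher in DL (9.52%, against 3.03% of all genes). In AS 1 was higher (2.38%, against 1.92%), and the median was -0.035. SLC2A12, a glucose transporter, stood at 7.52, 7.29, 8.29 and 7.84 on the DL arrays and at 6.51, 6.63, 7.26 and 7.04 on the AS arrays, a difference of -0.87 ± 0.10 (adjusted p = 0.00732) with no overlap. The oxidoreductase ERO1A (-0.51 ± 0.07, adjusted p = 0.0163) and VHL (-0.47 ± 0.08, adjusted p = 0.0302), which marks hypoxia-inducible factors for breakdown, were higher in DL like VEGFA, and the hypoxia-inducible factor EPAS1 was higher in AS (0.38 ± 0.07, adjusted p = 0.0432). PCCB, ECHDC1, SLC2A12 and ERO1A passed with each array left out in turn (adjusted p up to 0.0881), whereas ACADL did not without DL-FP 2, AS-FP 2 or AS-FS 1 (0.102 to 0.125) and NUDT7 did not without DL-FP 1, DL-FP 2 or AS-FS 2 (0.104 to 0.144). VHL passed only with DL-FS 1, DL-FS 2 or AS-FS 1 left out (otherwise 0.105 to 0.148) and EPAS1 only with DL-FP 1, DL-FS 1 or DL-FS 2 left out (otherwise 0.143 to 0.182). ACADL, VHL and EPAS1 did not pass without the replicate number in the model (adjusted p of 0.112 to 0.426).

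The list of cyclic nucleotide signalling, which also takes in receptors and regulators of G protein signalling, held some of the larger single-gene differences. Of 51 genes 4 were higher in AS (7.84%, against 1.92% of all genes) and 7 in DL (13.7%, against 3.03%), and the median was -0.004. AGTR1, the angiotensin II receptor, stood at 8.72, 8.26, 9.30 and 9.06 on the DL arrays and at 7.37, 7.29, 8.04 and 7.67 on the AS arrays. Every DL array lay above every AS array, with a difference of -1.24 ± 0.08 (adjusted p = 0.00062). The adenosine receptor ADORA2B (-0.56 ± 0.07, adjusted p = 0.0137) and the prostaglandin F receptor PTGFR (-0.40 ± 0.06, adjusted p = 0.0163) were also higher in DL, PTGFR with a difference of 0.08 in FP and -0.87 in FS. Phosphodiesterases, which break the nucleotides down, split. PDE1C was higher in DL (-1.19 ± 0.15, adjusted p = 0.0123), and PDE3A (0.72 ± 0.11, adjusted p = 0.0269) and PDE7B (0.63 ± 0.08, adjusted p = 0.00959) were higher in AS. PRKAR2B, a regulatory subunit of protein kinase A, stood at 7.16, 7.11, 6.86 and 6.67 on the DL arrays and at 8.20, 8.01, 7.86 and 7.86 on the AS arrays and differed by 1.03 ± 0.07 (adjusted p = 0.000862), but its other probe set differed by -0.16. RGS22, a regulator of G protein signalling, differed by -1.05 ± 0.11 (adjusted p = 0.00602), and its relative RGS3 the other way by 0.48 ± 0.09 (adjusted p = 0.0475). PDE7B, PDE1C and RGS3 had other probe sets that averaged 0.10, -0.28 and -0.07, in that order. Of those of PDE1C, the probe set at -0.64 was called. AGTR1, PRKAR2B, RGS22, PDE7B, PDE1C, ADORA2B and PTGFR passed with each array left out in turn (adjusted p up to 0.0966), whereas PDE3A did not without DL-FP 2, AS-FP 2 or AS-FS 1 (0.102 to 0.144). RGS3 passed only with DL-FP 1 or AS-FS 1 left out (otherwise 0.117 to 0.203). PDE7B and RGS3 did not pass without the replicate number in the model (adjusted p of 0.173 to 0.426).

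The called genes of purine breakdown were higher in DL and those of ion channels higher in AS. Of 33 genes of purine signalling, 3 were higher in DL (9.09%, against 3.03% of all genes) and 0 in AS (median -0.009): the ectonucleotidase ENTPD1, also known as CD39 (-0.64 ± 0.11, adjusted p = 0.0374), its intracellular relative ENTPD7 (-0.54 ± 0.11, adjusted p = 0.0622) and the adenosine deaminase ADA (-0.75 ± 0.14, adjusted p = 0.0531). All 3 probe sets of ENTPD7 were called. Of 48 potassium and calcium channel genes 3 were higher in AS (6.25%, against 1.92%) and 0 in DL (median 0.042): the potassium channel genes KCNK1 (0.63 ± 0.09, adjusted p = 0.0159), KCNT2 (0.63 ± 0.14, adjusted p = 0.0811) and KCNJ8 (0.52 ± 0.11, adjusted p = 0.0695). For all 3 channel genes the difference was wider in FP (1.04, 1.05 and 0.77) than in FS (0.23, 0.21 and 0.28). KCNJ8 had other probe sets that averaged 0.03. KCNK1 did not pass without DL-FP 2 (0.105) and ENTPD1 did not without DL-FP 1, DL-FP 2, DL-FS 1 or AS-FS 2 (0.111 to 0.168). ADA passed only with DL-FS 2 or AS-FP 2 left out (otherwise 0.119 to 0.196), ENTPD7 only with DL-FP 2 or AS-FS 2 left out (otherwise 0.142 to 0.194) and KCNJ8 and KCNT2 only with DL-FS 2 left out (otherwise 0.135 to 0.279). ENTPD1, ADA, ENTPD7, KCNJ8 and KCNT2 did not pass without the replicate number in the model (adjusted p of 0.110 to 0.497).

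Matrix genes differed by family. Among 35 genes of elastic fibres, tenascins and related glycoproteins, 6 were higher in DL (17.1%, against 3.03% of all genes). In AS 2 were higher (5.71%, against 1.92%), and the median was -0.063. HMCN1, the large matrix protein hemicentin, stood at 7.80, 7.87, 8.28 and 8.34 on the DL arrays and at 6.86, 6.84, 7.50 and 7.67 on the AS arrays. FS lay above FP in both breeds, every DL array lay above every AS array, and all 5 other probe sets shared the sign of the difference of -0.86 ± 0.07 (adjusted p = 0.00164), with 5 probe sets called in all. OLFML2B and OLFML2A, secreted proteins with an olfactomedin domain, differed by -0.98 ± 0.08 (adjusted p = 0.00172) and -0.83 ± 0.15 (adjusted p = 0.0424). Tenascins TNXB (-0.50 ± 0.06, adjusted p = 0.00922) and TNC (-0.46 ± 0.10, adjusted p = 0.0806) were higher in DL on all their probe sets above background, 2 and 3 in number, and all were called. LTBP2, which lies on fibrillin microfibrils, differed by -0.42 ± 0.06 (adjusted p = 0.0172), with its other probe set at 0.07. The lysyl oxidases LOXL4 (0.49 ± 0.10, adjusted p = 0.0569) and LOXL2 (0.23 ± 0.05, adjusted p = 0.0927), which cross-link collagen and elastin, were the genes higher in AS. HMCN1, OLFML2B and TNXB passed with each array left out in turn (adjusted p up to 0.0677), whereas LTBP2 did not without DL-FP 2 (0.108). OLFML2A passed only with DL-FS 1, DL-FS 2 or AS-FP 1 left out (otherwise 0.118 to 0.187), TNC only with DL-FS 1 or AS-FS 1 left out (otherwise 0.120 to 0.301) and LOXL4 and LOXL2 lost the call with each array left out (0.103 to 0.308). TNXB, LTBP2, OLFML2A, LOXL4, TNC and LOXL2 did not pass without the replicate number in the model (adjusted p of 0.128 to 0.727).

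In basement membrane genes 3 of 38 were higher in AS (7.89%, against 1.92% of all genes) and 2 in DL (5.26%, against 3.03%). The median was -0.007. COL4A1, a collagen chain of that membrane, stood at 8.06, 8.15, 7.59 and 7.62 on the DL arrays and at 8.42, 8.52, 8.43 and 8.38 on the AS arrays, and SGCD, a sarcoglycan that anchors cells to laminin through dystroglycan, stood at 8.64, 8.48, 8.61 and 8.37 on the DL arrays and at 9.48, 9.24, 9.21 and 9.05 on the AS arrays. Both were higher in AS without overlap, by 0.58 ± 0.06 (adjusted p = 0.00643) and 0.72 ± 0.06 (adjusted p = 0.00154), and 4 of 6 probe sets of SGCD were called. The laminin chains differed in opposite directions, LAMA2 higher in AS (0.46 ± 0.07, adjusted p = 0.0172) and LAMA3 higher in DL (-0.75 ± 0.08, adjusted p = 0.00637). LAMA2 differed by 0.88 in FP and 0.05 in FS, and 3 of its 4 probe sets were called. COL15A1, a collagen at the outer face of the membrane, was higher in DL (-0.28 ± 0.06, adjusted p = 0.0870), with its other probe set at 0.06. Of 25 ADAMTS proteases and related proteins, ADAMTSL3 (-0.48 ± 0.06, adjusted p = 0.0108, on all 4 probe sets) and ADAMTSL1 (-0.42 ± 0.06, adjusted p = 0.0192) were higher in DL and ADAMTSL4 (0.39 ± 0.08, adjusted p = 0.0764) in AS, and none of the called genes was a protease. The shares of the list were 8.0% higher in DL (against 3.03% of all genes) and 4.0% higher in AS (against 1.92%). ADAMTSL4 had other probe sets that averaged 0.08. SGCD, LAMA3, COL4A1, LAMA2, ADAMTSL3 and ADAMTSL1 passed with each array left out in turn (adjusted p up to 0.09996). COL15A1 passed only with DL-FS 1 left out (otherwise 0.141 to 0.305) and ADAMTSL4 lost the call with each array left out (0.116 to 0.274). LAMA2, COL15A1 and ADAMTSL4 did not pass without the replicate number in the model (adjusted p of 0.189 to 0.752).

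Of 53 genes for glycosaminoglycans, 2 were higher in AS (3.77%, against 1.92% of all genes). In DL 4 were higher (7.55%, against 3.03%), HPSE among them, and the median was -0.044. CEMIP, which starts the breakdown of hyaluronan, stood at 7.86, 7.63, 7.54 and 7.30 on the DL arrays and at 8.64, 8.56, 8.86 and 8.41 on the AS arrays. Every AS array lay above every DL array, with a difference of 1.03 ± 0.08 (adjusted p = 0.00112), and CD44, the hyaluronan receptor, was higher in AS by 0.29 ± 0.06 (adjusted p = 0.0617). The sulphotransferase CHST15 (-0.51 ± 0.08, adjusted p = 0.0276), the heparan epimerase GLCE (-0.35 ± 0.07, adjusted p = 0.0583) and the sulphatase SULF1 (-0.26 ± 0.06, adjusted p = 0.0735) were higher in DL. Of 52 genes of TGF-beta, activin and BMP signalling, 2 were higher in AS (3.85%, against 1.92% of all genes) and 1 in DL (1.92%, against 3.03%), with a median of -0.021. GREM1, an antagonist of BMP, stood at 7.09, 7.18, 6.52 and 6.62 on the DL arrays and at 5.63, 5.28, 6.24 and 6.34 on the AS arrays, a difference of -0.98 ± 0.10 (adjusted p = 0.00584) that was -1.68 in FP and -0.28 in FS. BMPER, another BMP-binding protein, was higher in AS (0.86 ± 0.12, adjusted p = 0.0143), as was CCN2, connective tissue growth factor (0.51 ± 0.08, adjusted p = 0.0271). SULF1 and CCN2 had other probe sets that averaged -0.07 and 0.02, in that order. CEMIP, GREM1 and BMPER passed with each array left out in turn (adjusted p up to 0.0912), whereas CCN2 did not without DL-FP 2 or AS-FS 2 (0.119 to 0.140) and CHST15 did not without DL-FP 1, DL-FP 2, AS-FP 2 or AS-FS 1 (0.104 to 0.129). CD44 passed only with DL-FS 2 left out (otherwise 0.131 to 0.225) and GLCE and SULF1 lost the call with each array left out (0.120 to 0.273). GLCE, CD44, SULF1 and CCN2 did not pass without the replicate number in the model (adjusted p of 0.190 to 0.654).

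Among 44 genes of polarity, scaffolds and junctions 5 were higher in DL (11.4%, against 3.03% of all genes) and 0 in AS. Of the differences 32 of 44 lay below 0 (median -0.06). PALS2, a membrane scaffold, stood at 7.44, 7.56, 7.50 and 7.49 on the DL arrays and at 6.01, 6.39, 6.05 and 5.83 on the AS arrays. The DL arrays were nearly level, none was reached by an AS array and the difference was -1.43 ± 0.10 (adjusted p = 0.00112). AMOTL1, an angiomotin that binds the Hippo effector YAP (-0.66 ± 0.05, adjusted p = 0.00172), the tight junction protein CLDN11 (-0.60 ± 0.10, adjusted p = 0.0390), the adhesion molecule JAM3 (-0.35 ± 0.07, adjusted p = 0.0493) and the polarity protein PARD3B (-0.35 ± 0.08, adjusted p = 0.0812) followed. AMOTL1, CLDN11 and PARD3B had other probe sets that averaged -0.11, -0.03 and -0.10, in that order. PALS2 and AMOTL1 passed with each array left out in turn (adjusted p up to 0.0214). CLDN11 passed only with DL-FP 2 or DL-FS 1 left out (otherwise 0.106 to 0.139), JAM3 only with DL-FS 1 or AS-FP 1 left out (otherwise 0.124 to 0.213) and PARD3B lost the call with each array left out (0.131 to 0.306). JAM3 and PARD3B did not pass without the replicate number in the model (adjusted p of 0.333 to 0.369).

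Outside the lists, a set of genes was supported by more than one probe set: at least 2 were called in the same direction, none in the other, and no array of one breed reached the other. The 10 largest called differences of each direction among genes without overlap are left aside here. GRIN3A, a subunit of NMDA-type glutamate receptors, stood at 6.13, 6.11, 6.33 and 6.59 on the DL arrays and at 7.73, 7.89, 7.12 and 7.32 on the AS arrays, and its second probe set differed by 1.49. The brightest differed by 1.23 ± 0.08 (adjusted p = 0.000706). ARG2, the mitochondrial arginase, was higher in AS by 0.98 ± 0.14 (adjusted p = 0.0202), with 2 of 7 probe sets called and 4 of the 6 others sharing its sign. LDB2, a cofactor of LIM transcription factors (0.87 ± 0.09, adjusted p = 0.00584), SYBU, a link between vesicles and kinesin (0.82 ± 0.09, adjusted p = 0.00721), NFKBIZ, a nuclear regulator of NF-kappa-B (0.64 ± 0.08, adjusted p = 0.0103), the fibrillar collagen COL24A1 (0.62 ± 0.11, adjusted p = 0.0429), the limb transcription factor TBX3 (0.53 ± 0.09, adjusted p = 0.0316) and the sodium-calcium exchanger SLC8A3 (0.48 ± 0.07, adjusted p = 0.0202) were higher in AS. In DL, GSN, the actin-severing protein gelsolin, stood at 10.52, 10.19, 10.07 and 10.11 on the DL arrays and at 9.41, 9.31, 9.59 and 9.33 on the AS arrays. All 3 probe sets of GSN were called, with a difference of -0.81 ± 0.07 (adjusted p = 0.00263) on the brightest. ACKR4, a scavenging receptor for chemokines, differed by -0.98 ± 0.17 (adjusted p = 0.0414), almost all of it in FS (-1.82 against -0.15 in FP). Also higher in DL were MAL2, a protein of membrane traffic (-0.92 ± 0.09, adjusted p = 0.00347), KIAA0895 (-1.19 ± 0.16, adjusted p = 0.0138), the cytochrome P450 CYP3A46 (-1.14 ± 0.20, adjusted p = 0.0422) and LRRC4, a synaptic adhesion protein (-0.73 ± 0.13, adjusted p = 0.0402). ARG2 had other probe sets that averaged 0.07. GRIN3A, ARG2, LDB2, SYBU, NFKBIZ, KIAA0895, MAL2 and GSN passed with each array left out in turn (adjusted p up to 0.0964), whereas SLC8A3 did not without DL-FP 2, AS-FP 2 or AS-FS 2 (0.102 to 0.107). TBX3 passed only with DL-FS 1, AS-FP 2 or AS-FS 1 left out (otherwise 0.102 to 0.139), ACKR4 only with DL-FS 1, DL-FS 2 or AS-FS 1 left out (otherwise 0.101 to 0.164), LRRC4 only with DL-FP 1, DL-FS 1 or DL-FS 2 left out (otherwise 0.118 to 0.184), COL24A1 only with DL-FS 1 or AS-FP 1 left out (otherwise 0.117 to 0.179) and CYP3A46 only with DL-FP 1 or AS-FP 1 left out (otherwise 0.102 to 0.157). COL24A1, SLC8A3, CYP3A46 and ACKR4 did not pass without the replicate number in the model (adjusted p of 0.112 to 0.213).

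The 10 largest differences of each direction were taken among called genes without overlap of the breeds. These were 132 of the 258 genes higher in AS and 234 of the 407 higher in DL. The 10 higher in AS were LOC100519166 (1.95), PLCXD3, SLC5A7, DIP2A, LOC110258845, PSMB8, GABRA6, SLIT3, DGKB and MID2 (1.24). GABRA6 had a DL mean of 2.62, below the highest background median of the DL arrays, and was higher in AS by at least 1.29 on the log2 scale, counted on each DL array from the higher of its own signal and the background median of that array. DGKB had a DL mean of 2.78, under the limit of 2.81 used for single probe sets. The 10 higher in DL were TNFRSF17 (-2.52), CPM, PDPN, DDIT4L, GRID1, KERA, NTPCR, COLEC12, KIT and TMEM225B (-1.46), and each of the 20 passed the test with each array left out and without the replicate number in the model. Other probe sets above background differed by 0.01 for DIP2A, by -0.30 for PDPN and by 0.05 to 0.53 for MID2. PLCXD3, PSMB8, MID2, COLEC12 and KIT had at least 2 probe sets called. The rest of the 20 had no other probe set above background.

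Probe sets of the same gene mostly agreed in sign. Of the 258 genes higher in AS, 126 had other probe sets above background, and in 99 of these (78.6%) all of them shared the sign of the brightest. Of the 407 higher in DL, 210 had others, and in 164 (78.1%) all shared the sign. Among genes that were not called the share was 50.6%, 2551 of 5042. By probe set, 216 of 257 others shared the sign for genes higher in AS (84.0%) and 352 of 414 for genes higher in DL (85.0%), against 61.7% where the gene was not called. At least 2 probe sets were called in 47 and 80 genes. Sizes did not match as well as signs, since the mean of the other probe sets was a median of 0.618 of the brightest for genes higher in AS and 0.602 for genes higher in DL. Probe sets of a gene share the same RNA and arrays, so their agreement is not a replicate of the breed difference.

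**Figure D4:**
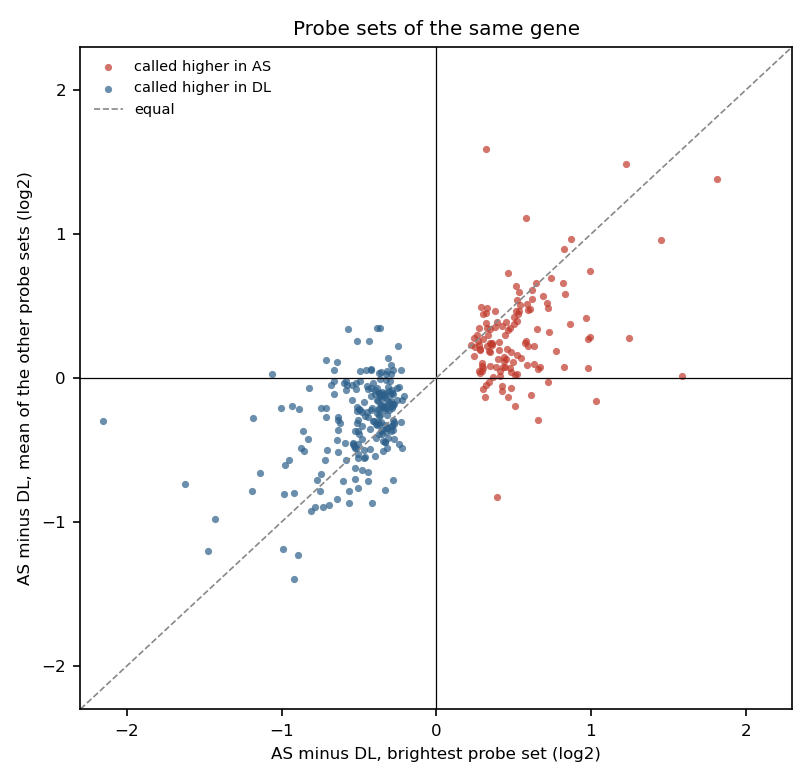
Log2 difference AS minus DL of the brightest probe set (x axis) against the mean difference of the other probe sets above background (y axis) for the called genes that have such others, red where higher in AS and blue where higher in DL, with a dashed line of equality. Most points lie in the quadrants of equal sign and nearer to 0 on the y axis, and 37 genes lie in the opposite quadrants.

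In 37 called genes the mean of the other probe sets had the opposite sign. The largest were CDSN, a protein of the skin barrier (-1.06 ± 0.21, adjusted p = 0.0585, others 0.03), PRKAR2B (1.03, other -0.16), IGFBP3 (0.72, other -0.03), the glutamate receptor GRIA1 (-0.71, other 0.12), the protein kinase A inhibitor PKIG (-0.66, others 0.06), the transcription factor FOXB1 (0.66, other -0.29), the growth factor PDGFC (-0.64, other 0.11) and SHCBP1, an adaptor of dividing cells (0.61, other -0.12). None of those other probe sets was called. For 5 genes probe sets were called in both directions: CYP20A1, GET4, NRP2, RPL19 and LOC396781. CYP20A1, an orphan cytochrome P450, was higher in AS by 0.39 on one probe set and lower by 0.83 on the other. NRP2, a receptor for semaphorins and VEGF, was lower in AS by 0.33 on the brightest, with 4 of its 9 probe sets called in that direction, 1 in the other and a highest value of 0.39. GET4, RPL19 and LOC396781 have 68, 74 and 251 probe sets in the annotation, and the brightest of each was not called. PRKAR2B, FOXB1 and PDGFC passed with each array left out in turn (adjusted p up to 0.0976), whereas SHCBP1 did not without DL-FP 2 or AS-FP 2 (0.109 to 0.112) and PKIG did not without DL-FP 1, DL-FP 2 or AS-FS 1 (0.110 to 0.136). CDSN passed only with DL-FS 1, AS-FP 1 or AS-FS 2 left out (otherwise 0.139 to 0.211), GRIA1 only with DL-FS 1, DL-FS 2 or AS-FS 2 left out (otherwise 0.111 to 0.147) and IGFBP3 only with DL-FS 2 left out (otherwise 0.118 to 0.254). CDSN, IGFBP3, PKIG, FOXB1 and SHCBP1 did not pass without the replicate number in the model (adjusted p of 0.137 to 0.598).

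The breed difference was compared between the tissues by an interaction term, with 2 arrays in each group. Of 47722 probe sets 0 passed (0.0%), with 2938 at an unadjusted p under 0.05 and a lowest adjusted p of 0.190, and 0 passed under each alternative run. Of the 665 called genes 655 had the same sign in FP and FS, a share that the call on the mean of both tissues favours. The 5 called genes with the smallest interaction p did not pass either (each at an adjusted p of 0.190). SFRP4, a secreted Wnt antagonist, stood at 10.05, 10.03, 11.16 and 11.03 on the DL arrays and at 10.14, 10.01, 10.20 and 9.91 on the AS arrays. It was higher on both DL-FS arrays than on any other, and the breed difference was 0.03 in FP and -1.04 in FS. The aldehyde dehydrogenase ALDH2 stood at 10.05, 10.48, 10.20 and 10.65 on the DL arrays and at 10.21, 10.65, 9.48 and 9.88 on the AS arrays, and was lowest on the AS-FS arrays, with differences of 0.17 in FP and -0.74 in FS. PDE7B differed in FP (1.26) and by 0.01 in FS, and SESN3 and PTGFR had the values by tissue given above. The overall breed difference was -0.29 ± 0.05 (adjusted p = 0.0361) for ALDH2 and -0.51 ± 0.06 (adjusted p = 0.00912) for SFRP4. SFRP4 passed with each array left out in turn (adjusted p up to 0.0634). ALDH2 passed only with DL-FS 1 or DL-FS 2 left out (otherwise 0.121 to 0.170). ALDH2 did not pass without the replicate number in the model (adjusted p = 0.701).

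**Figure D5:**
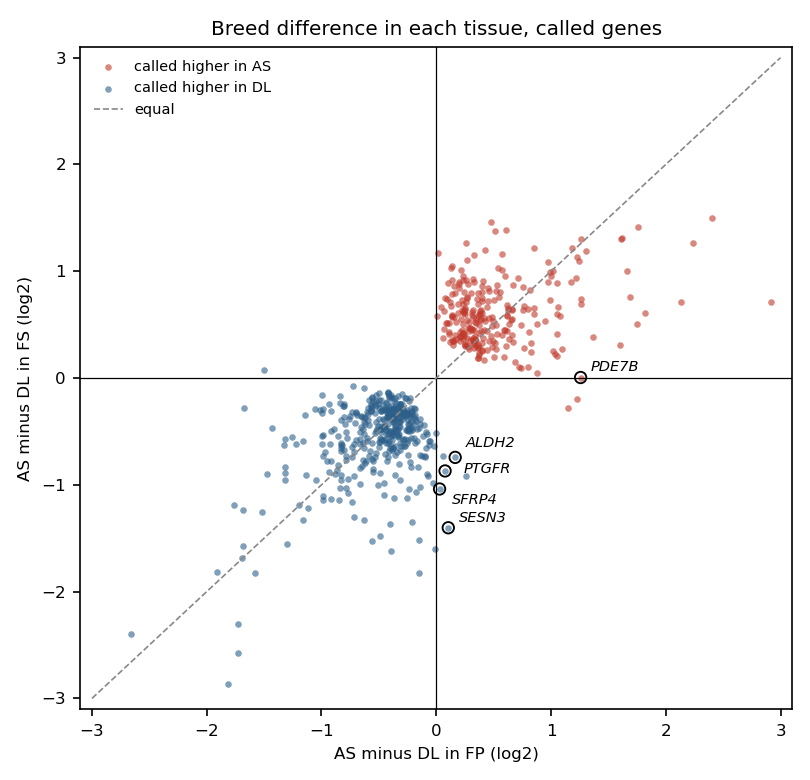
Log2 difference AS minus DL in FP (x axis) against that in FS (y axis), each the mean of 2 arrays against 2, for the 665 called genes, red where higher in AS and blue where higher in DL, with a dashed line of equality. Of the genes, 655 lie in the quadrants of equal sign, and circles mark the 5 with the smallest interaction p, none of which passed the test.

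Markers of the cell type and of other cells that cultures could hold were read on the same scale. Of the stem cell surface markers, THY1, ITGB1 and PDGFRA were high in both breeds (means of 10.91 to 11.40), ENG and CD44 stood near 9, and NT5E was near background (2.95 in DL and 3.06 in AS). CD44 and ALCAM were higher in AS and ENG, also known as CD105, was higher in DL (-0.27 ± 0.06, adjusted p = 0.0745). ALCAM stood at 3.92, 3.72, 3.65 and 3.64 on the DL arrays and at 5.69, 5.16, 3.95 and 3.95 on the AS arrays, so that its difference of 0.95 ± 0.14 (adjusted p = 0.0200) was 1.60 in FP and 0.31 in FS. The leukocyte antigen PTPRC, which these cells should lack, was below background in both breeds (2.02 and 2.14). SLA-DRA (2.79 and 2.65) lay under the limit of 2.81 in each. Its value of 2.79 was above the background medians of the DL arrays (2.66 to 2.72). In the list of negative markers, 4 of 6 measured genes lay above background, and 0 were called. Mean levels of that list were 4.57 to 4.73 on DL and 4.53 to 4.84 on AS arrays. Mean levels of the macrophage and leukocyte list were 4.52 to 4.60 on DL and 4.59 to 4.84 on AS arrays, with 0 of 13 genes called, 13 of 13 differences above 0 and a median of 0.12 (0.058 to 0.19 with an array left out). Its part in the breed differences was not tested. For the skeletal muscle list 0 of 15 were called, and MYF5 and MYOD1 stood at 1.56 and 3.12 in DL. Of the 15, 14 lay above background, with mean levels of 4.32 to 4.47 on DL and 4.34 to 4.48 on AS arrays. Of 13 endothelial markers PECAM1 was called, higher in DL (-0.53 ± 0.08, adjusted p = 0.0200), while KDR, TEK and EMCN were below 3.7 in both breeds. All 13 lay above background, with mean levels of 4.92 to 4.99 on DL and 4.94 to 5.02 on AS arrays. In the endothelial list 9 of 13 differences lay above 0, the direction opposite to PECAM1, with a median of 0.10. The called share was 7.69%, against 3.03% of all genes higher in DL. PDPN, podoplanin of the lining fibroblast, was the 1 of 10 lining markers that was called (-2.15 ± 0.09, adjusted p = 0.000165), and PRG4, the lubricin of that layer, stood at 4.81 in DL and 4.42 in AS (adjusted p = 0.257). In the lining list 6 of 10 differences lay below 0 (median -0.078). By tissue, 7 of 10 lay above 0 in FP and 2 of 10 in FS. KCNJ8, ADIPOQ and COL11A1 (0.44 ± 0.09, adjusted p = 0.0752) were the called genes of the pericyte, adipocyte and chondrocyte lists, all higher in AS, with 1 called of 11, 12 and 12. The called shares were 9.09%, 8.33% and 8.33%, against 1.92% of all genes higher in AS. Differences above 0 numbered 7 of 11, 5 of 12 and 9 of 12 in these lists, with medians of 0.11, -0.016 and 0.084. COL11A1 stood at 6.12, 5.69, 5.90 and 5.33 on the DL arrays and at 7.35, 6.75, 5.73 and 4.96 on the AS arrays, so that the AS-FP arrays were the highest and each AS-FS array lay below the DL-FS array of the same number. PDPN had other probe sets that averaged -0.30. PDPN passed with each array left out in turn (adjusted p up to 0.00342), whereas ALCAM and PECAM1 did not without DL-FP 2 (0.119 to 0.121). ENG passed only with DL-FS 1 left out (otherwise 0.154 to 0.267) and COL11A1 lost the call with each array left out (0.136 to 0.251). ENG, PECAM1 and COL11A1 did not pass without the replicate number in the model (adjusted p of 0.220 to 0.662).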

How the data were processed

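SMSCs of DL and AS piglets were profiled on 8 Affymetrix Porcine Snowball arrays, 2 for each breed and tissue. Scanning was done by the authors in GCOS 1.1.1. The deposited log2 signals of 47845 probe sets come from robust multichip average (background correction, quantile normalisation and median polish over a set's probes), with no filter applied. Quantile normalisation gives all arrays nearly the same distribution, so a shift shared by most genes cannot be seen, and signals of different probe sets are not compared as amounts of RNA. The number of arrays, not a read depth, limits the precision.

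The 123 control probe sets were left out. The other 47722 were fitted in limma 3.58.1 (R 4.3.3) with 4 group means and the replicate number as a block, moderated variances with a trend (residual degrees of freedom 3, prior 5) and Benjamini-Hochberg adjustment over all of them, at the threshold of 0.1 that the methods of the study name. The breed difference is the mean of both AS groups minus the mean of both DL groups, and the interaction is that difference in FP minus that in FS. The script was tested on simulated data. In 6 of 6 group pairs, arrays sharing a number deviated together from their group means (r of 0.14 to 0.22 across probe sets). The arrays of a group deviate from its mean by equal amounts in opposite directions, so the 6 pairs are not independent. These correlations therefore cannot decide whether the numbers mark a true pairing. Taking the numbers to pair the arrays was an assumption. The labels give the numbers without saying what they stand for.

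The platform annotation gave 1 symbol to 26426 probe sets, several to 0, and 395 symbols were brought up to date through RefSeq (Sscrofa11.1). After 65 names from the study's supplementary annotation and 40 older symbols were matched, 25933 tested probe sets carried a gene name and 21789 did not. A gene was represented by its probe set with the highest mean over the 8 arrays, and its other probe sets were counted where their mean exceeded the highest array median of the 69 background probe sets (2.81).

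The gene lists and members were chosen with earlier results of these data known, so the counts describe the lists and are no independent evidence. Named genes are the called members of each list in order of adjusted p (at most 8). The 10 largest called differences in each direction among genes with no overlap were added. So were the next 15 largest in each direction with at least 2 probe sets called, none opposed and no overlap. The rest are 8 called genes with opposed probe sets and the 5 called genes with the smallest interaction p. Genes named outside these rules (cell type markers that were not called, and those called in both directions) were chosen after their values were seen. Alternatives were no block, an SD filter of 0.25, a filter on background, no variance trend, a plain linear model, median centring, a threshold of 0.05, the mean of a gene's probe sets and each array left out. Promoter motifs were not analysed here, and 1 gene list is not reported here. Figures were drawn with matplotlib 3.10.9.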

Additional observations from a re-analysis of the deposited data

Results flagged for a closer look

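In 388 groups of 4 arrays (the named genes in each breed), 10 had a single array far from the other 3 by Dixon's criterion, which chance meets in about 1 group of 20, and a breed's 4 arrays mix both tissues. PSMB8 stood at 9.44 on AS-FS 2 against 9.64 to 9.66 on the other AS arrays. TOP2A was 8.92 on AS-FP 1 against 8.62 to 8.66. PDPN was 5.19 on AS-FS 1 against 5.52 to 5.58, SLC1A4 was 8.91 on that array against 8.54 to 8.58, IFIT5 was 8.86 on it against 8.37 to 8.44, and IRF1 was 7.08 on it against 6.58 to 6.61. ADAMTSL1 was 9.36 on AS-FS 2 against 9.15 to 9.19. Among the DL arrays, SLC8A3 was 8.34 on DL-FS 1 against 8.55 to 8.59, NUDT7 was 7.79 on DL-FS 1 against 7.21 to 7.25, and SULF1 was 9.62 on DL-FP 1 against 9.75 to 9.77. Both IFIT5 and SLC1A4 were called with all 8 arrays. Among the runs with 1 array left out, IFIT5 passed only without AS-FS 1, whereas SLC1A4 did not pass without that array.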

How the results depend on the processing

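Without the replicate block 110 probe sets were called higher in AS and 208 higher in DL (55 and 101 genes), in place of 586 and 865 (258 and 407 genes). Without a variance trend the counts were 107 and 177 probe sets (56 and 76 genes), in a plain linear model 1 and 2 (0 and 0 genes), and at a threshold of 0.05 they were 286 and 436 (136 and 222 genes). With the SD filter 571 probe sets were higher in DL. Fitting the mean of a gene's probe sets called 605 genes higher in AS and 817 higher in DL. With 1 array left out, 121 to 419 probe sets (64 to 189 genes) were higher in AS and 228 to 678 (115 to 334 genes) higher in DL. In each such run 3 arrays stand against 4 and fewer degrees of freedom remain. These counts were lowest without DL-FP 2. Counts kept within 1.5 times under median centring and under the background filter. The interaction count was 0 throughout. Of 194 named genes, 110 lost the call without the block, 123 without the trend, 194 in the plain model, 26 with the mean of a gene's probe sets, 25 with the SD filter (which leaves 18 others untested), 4 with median centring, 0 with the background filter and 42 to 104 with an array left out. One named gene turned direction, VEGFA, which was 0.22 with the SD filter, where another of its probe sets becomes the brightest. That probe set was not called. The VEGFA probe sets brighter than it differed by -0.36, -0.27 and -0.31, and those at -0.36 and -0.27 were called. The 3 residual degrees of freedom limit the precision of every p-value.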

Other observations

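Genes that lie next to each other in the Sscrofa11.1 annotation of RefSeq were looked at after the values were seen, as a description with no test. Of 251 genes called higher in AS that could be placed, the next gene was also called higher in AS for 11 (4.38%, where 2.04% of all placed genes were called so) and higher in DL for 8, and of 400 called higher in DL the next gene was called the same way for 25 (6.25%, against 3.25%) and the other way for 9. Several such neighbours are related by descent, and their probe sets may share signal. Small leucine-rich proteoglycans of the matrix formed 2 such runs, DCN (-0.33), LUM (-1.01) and KERA (-1.70), and FMOD (-0.27) with PRELP (-0.35), all higher in DL. The aldo-keto reductases AKR1CL1 (-0.83) and AKR1E2 (-1.17), with LOC733635 (not above background in AS) between them, the IGF-binding proteins IGFBP2 (-0.95) and IGFBP5 (-0.37), and the complement genes C2 (-0.36) and CFB (-0.58) were higher in DL as well, as were IFIT3 (-0.92) and IFIT1 (-0.63). OAS2 (0.33) and OAS1 (0.98) were neighbours higher in AS. Unrelated neighbours were called together too, such as IGFBP4 (0.73) with TOP2A (0.62), TMPO (0.43) with NEDD1 (0.51) and PKIG (-0.66) with ADA (-0.75).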
